A study of Mus musculus with 111 samples.

Results

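The response of the mouse lung to bleomycin was compared between days 14 and 21 after the dose. For each gene, the response on a day was the mean log2 level of the bleomycin mice minus that of the saline mice of the same day, and the response at day 14 was subtracted from the response at day 21. On this scale a difference of 1 is 2-fold. A response is said to have fallen where this difference was below 0 and to have risen where it was above 0, in both cases at an adjusted p under 0.05 in limma, which fits each gene and steadies its error with that of the others. The groups compared held the 31 of 111 arrays that came from these 2 days, while the error of each gene came from all 111. The comparison covered 15707 genes, 1 probeset each, from the 27871 of 32688 probesets that stood for a single gene.

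The mice were male C57BL6/J, 7 to 9 weeks old when bought, and each array held the RNA of the whole left and right lungs of 1 mouse. A single intratracheal spray of bleomycin (2 U/kg in 50 µl), an antibiotic that breaks DNA strands, or of 50 µl of saline was given under light isoflurane anaesthesia. Each group held 8 mice, except 7 in the saline group of day 14, from which the authors had removed 1 array after a principal component analysis. No mouse was sampled on both days, so each response has its own controls, and a shift between days that touched bleomycin and saline mice alike cancels in the difference.

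Levels of genes that mark lung tissue were high on every one of the 31 arrays. Sftpc, the surfactant protein of alveolar type II cells, lay at 14.37 to 14.53, Ager, a marker of alveolar type I cells, at 13.86 to 14.21, and Scgb1a1, the secretory protein of club cells, at 14.46 to 14.69. In whole lungs fewer cells of a type and less RNA per cell cannot be told apart. 2 arrays of day 21 stood apart. The median correlation of bleomycin replicate 4 with its own group was 0.984, the lowest of the 31 arrays, and its level lay within the saline range for Igfbp3, Cyp1a1 and the mitosis genes. Saline replicate 4 had the lowest saline level of the alveolar macrophage genes Siglecf, Fabp1 and Chil3 and the highest of Ctla4. It also had the highest mean level among saline mice of day 21 for several immune lists. These were plasma cell (11.67, median 9.42), interferon-stimulated (10.71, median 9.74) and T cell genes (8.84, median 8.11), among others. Monocyte (10.36, median 9.72), complement (9.80, median 9.20) and chemokine genes (8.86, median 8.31) were further cases. For neutrophil genes and for cytokines and receptors, saline replicate 6 was the highest. Counts of gene lists are also given without both arrays where they changed, a choice made after their values were seen.

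Fibrosis follows lung injury when fibroblasts multiply, contract and deposit collagens, fibronectin and other matrix proteins, under the control of transforming growth factor beta, activin and Wnt signals. In mice given a single dose of bleomycin, inflammation comes first, matrix is deposited in the following weeks, and the injured epithelium is then partly restored from alveolar type II and club cells.

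The response of 583 genes fell (3.71% of those tested) and that of 458 genes rose (2.92%). These shares are the background for every count of a gene list below. With a difference of more than 2-fold, 42 genes fell (0.267%) and 13 rose (0.0828%). Of the 15707 genes, 51.5% had a difference below 0, and the median difference was -0.01. The 42 genes had a median response of 1.82 at day 14 and 0.63 at day 21, while their level changed between the days by a median of -1.07 in bleomycin mice and 0.14 in saline mice. The 13 genes had a median response of -0.38 at day 14 and 0.87 at day 21, with a median change of 0.55 in bleomycin mice and -0.93 in saline mice. The change in bleomycin mice was larger than that in saline mice for 37 of the 42 genes and for 5 of the 13. Between the days 8.62% of all genes passed in saline mice and 29.1% in bleomycin mice, against 66 and 507 of the 583 that fell and 108 and 326 of the 458 that rose.

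The fit without both day 21 arrays numbered 4 gave other counts. There 422 genes fell and 355 rose, with 27 and 11 over 2-fold, and 670 of the 1041 called genes were called again. Leaving out single arrays gave 401 to 808 genes that fell and 293 to 666 that rose. Bleomycin replicate 8 of day 14 set the upper ends, with 69 and 22 over 2-fold without it. The count of genes that rose was 293, 300 and 298 without bleomycin replicates 2, 5 and 7 of day 14, and those over 2-fold numbered 8, 7 and 8 without bleomycin replicates 1 and 2 of day 14 and saline replicate 4 of day 21. When the median of each array was subtracted first, 464 genes fell and 567 rose, so that rises outnumbered falls. The unadjusted p was under 0.05 for 3326 genes.

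**Figure D1:**
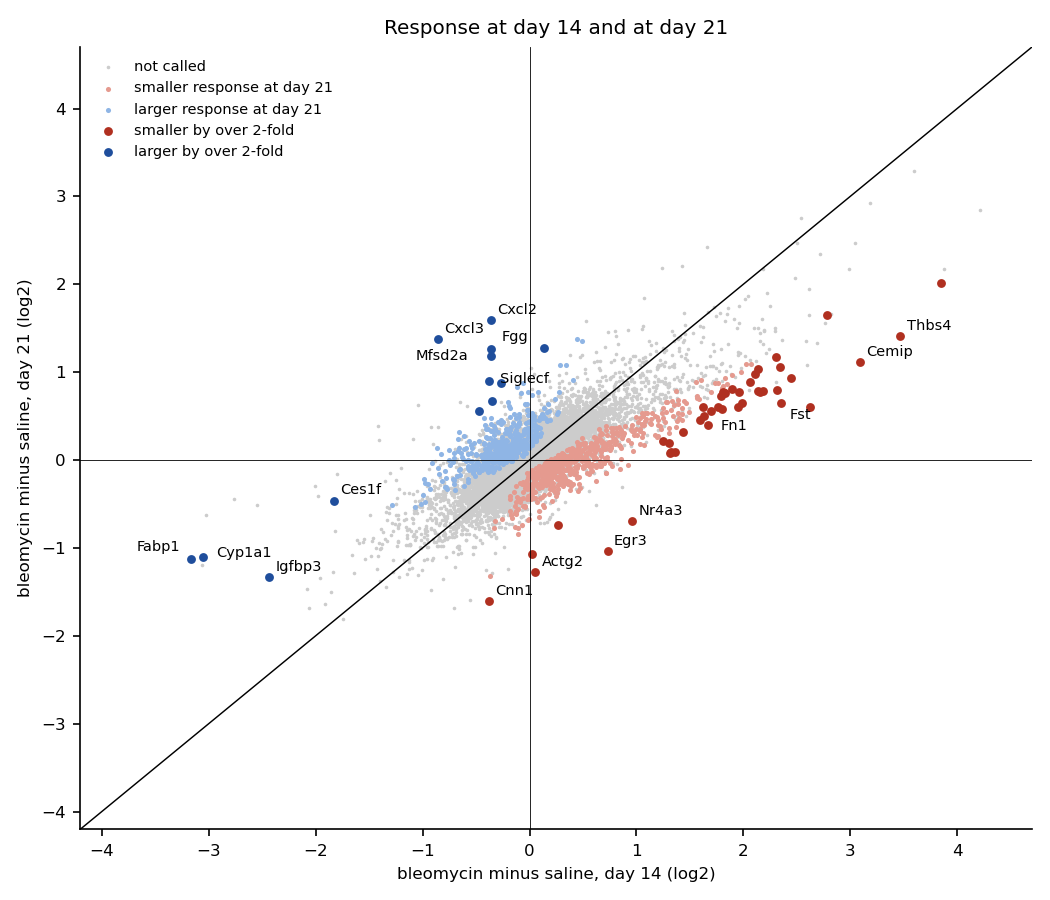
Response of each gene (bleomycin minus saline, log2) at day 14 on the horizontal axis and at day 21 on the vertical axis, with equal responses on the diagonal. Most of the 42 genes whose response fell by over 2-fold (dark red) lay to the right, high at day 14, and the 13 whose response rose by over 2-fold (dark blue) lay above the diagonal.

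The 583 genes came from several patterns. At any fold, 21.9% of all genes passed as higher and 19.7% as lower at day 14, and 20.5% and 18.9% at day 21. The levels of 138 were higher in bleomycin than in saline mice on both days, 268 were higher at day 14 and passed in neither direction at day 21, and 29 were higher at day 14 and lower at day 21. A further 131 passed in neither direction at day 14 and were lower at day 21, 9 were lower on both days and 8 passed on neither. Among the 458 genes that rose, 227 were lower at day 14 and passed in neither direction at day 21, 159 passed only at day 21, where they were higher, and 28 went from lower to higher. The other genes were lower (22) or higher (14) on both days or passed on neither (8).

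Genes of the extracellular matrix outside the collagen family held the largest fall, that of Thbs4. Of 36 measured glycoproteins and proteoglycans the response of 12 fell, 9 of them by over 2-fold, and none rose. The median difference of the list was -0.39, against -0.01 over all genes. Thbs4, a thrombospondin of connective tissue, had levels of 5.95 to 6.80 (median 6.37) in saline and 9.003 to 10.98 (median 9.69) in bleomycin mice of day 14, and 5.98 to 6.81 (median 6.59) and 6.82 to 8.52 (median 8.22) in those of day 21. Every bleomycin mouse of day 14 lay above every saline mouse, and every bleomycin mouse of day 21 lay below all of day 14 and above every saline mouse of its own day. Its response was 3.47 at day 14 and 1.41 at day 21, a difference of -2.06 (standard error 0.40, adjusted p = 0.000553). Thbs2 and Thbs1, thrombospondins that bind cells and growth factors, differed by -1.51 (standard error 0.33, adjusted p = 0.00189) and -1.27 (standard error 0.34, adjusted p = 0.0127).

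Fn1, which encodes fibronectin, the glycoprotein on which collagen is assembled, had levels of 8.76 to 9.35 (median 9.04) in saline and 10.36 to 11.37 (median 11.16) in bleomycin mice of day 14, and 9.12 to 9.85 (median 9.50) and 9.44 to 10.55 (median 10.06) in those of day 21. Each of the 8 bleomycin mice of day 14 lay above the saline range and 6 of 8 did so at day 21, where the lowest was replicate 4. Its response was 1.95 at day 14 and 0.60 at day 21, a difference of -1.35 (standard error 0.25, adjusted p = 0.000298), and bleomycin mice differed by -0.88 and saline mice by 0.46 between the days. A brighter probeset of Fn1, at a mean level of 12.86, gave a smaller difference of -0.43 (adjusted p = 0.0224). Fbn2, Fmod, Cthrc1 and Cilp, which encode a fibrillin, a collagen-binding proteoglycan and 2 matrix proteins of scars and cartilage, differed by -1.18, -1.17, -1.14 and -1.10. Eln, which encodes elastin, differed by -1.13. When both arrays numbered 4 were left out, 10 of the 36 fell and the median difference was -0.42.

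Outside the lists, Cemip, which degrades hyaluronan, differed by -1.97 (standard error 0.54, adjusted p = 0.0155), with a response of 3.09 at day 14 and 1.12 at day 21. A brighter probeset of Cemip gave -0.06 (adjusted p = 0.725) and a dimmer one -0.46 (adjusted p = 0.0392). Chodl, a lectin-like membrane protein, had levels of 4.58 to 5.28 (median 4.94) in saline and 7.22 to 9.84 (median 9.42) in bleomycin mice of day 14, and 4.71 to 5.88 (median 5.19) and 4.88 to 9.19 (median 7.02) in those of day 21, and all 8 bleomycin mice of day 14 and 7 of 8 at day 21 lay above the saline range. Its difference was -1.83 (standard error 0.55, adjusted p = 0.0273). That of Chodl did not pass without bleomycin replicate 1, 2 or 7 of day 14 (adjusted p = 0.0508, 0.0505 and 0.0545) or bleomycin replicate 4 of day 21 (-1.49, adjusted p = 0.0706). Glod5, of the glyoxalase domain family, differed by -2.02 (standard error 0.39, adjusted p = 0.00064) and Csmd1, a membrane regulator of complement, by -1.40 (standard error 0.35, adjusted p = 0.00837). A brighter probeset of Csmd1 gave -0.41 (adjusted p = 0.123).

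Of 28 collagen chains the response of 10 fell and none rose, with a median difference of -0.31 and median responses of 0.54 at day 14 and 0.28 at day 21. The largest falls were those of Col5a3 and Col24a1. Col5a3, a chain of type V collagen that nucleates fibrils, had levels of 7.41 to 7.94 (median 7.67) in saline and 8.44 to 9.77 (median 9.47) in bleomycin mice of day 14, and 7.23 to 7.83 (median 7.42) and 7.06 to 8.39 (median 8.15) in those of day 21. All bleomycin mice lay above the saline range at day 14, and 7 of 8 did so at day 21, where replicate 4 lay below it. Its difference was -1.14 (standard error 0.31, adjusted p = 0.0152), while a dimmer probeset gave 0.04 (adjusted p = 0.856). Col5a1, Col8a1 and Col16a1 differed by -0.91, -0.88 and -0.84. Col24a1, a fibrillar chain known from bone, had a response of 2.78 at day 14 and 1.65 at day 21, and its difference of -1.13 (standard error 0.36, adjusted p = 0.0399) did not pass in 13 of the 31 fits that left out 1 array (-0.87, adjusted p = 0.109 without bleomycin replicate 4 of day 21, the highest p).

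Col1a1 and Col3a1 encode chains of the main fibrils. Col1a1, of type I collagen, had levels of 12.41 to 12.74 (median 12.55) in saline and 13.22 to 13.77 (median 13.52) in bleomycin mice of day 14, and 11.91 to 12.89 (median 12.33) and 12.31 to 12.98 (median 12.74) in those of day 21. At day 14 the groups did not overlap, and at day 21 only 1 of 8 bleomycin mice lay above the saline range. The difference of Col1a1 was -0.60 (standard error 0.18, adjusted p = 0.0257). It did not pass without saline replicate 4 of day 21 (-0.53, adjusted p = 0.0583), and a brighter probeset, at a mean level of 13.24, gave -0.14 (adjusted p = 0.552). Col3a1, of type III collagen, had levels of 11.41 to 12.06 (median 11.62) in saline and 12.59 to 12.93 (median 12.79) in bleomycin mice of day 14, and 10.76 to 11.99 (median 11.02) and 11.10 to 12.60 (median 12.23) in those of day 21, so 7 of 8 bleomycin mice of day 21 still lay above the saline range. Its response was 1.13 at day 14 and 1.01 at day 21, and the difference of -0.12 (standard error 0.26, adjusted p = 0.855) had a 95% interval from -0.63 to 0.39. In the fit without both arrays numbered 4, 6 of the 28 chains fell.

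Enzymes that shape collagen moved in both directions. Of 19 collagen maturation genes 5 fell and 1 rose. P4ha3, a prolyl hydroxylase, and Lox, which crosslinks collagen, differed by -0.99 (standard error 0.27, adjusted p = 0.0137) and -0.69 (standard error 0.20, adjusted p = 0.0213), whereas P4ha2, another prolyl hydroxylase, rose by 0.50 (standard error 0.15, adjusted p = 0.0331). The other probesets of Lox, which gave -0.47 (adjusted p = 0.103) and -0.33 (adjusted p = 0.141), did not pass. The difference of P4ha2 did not pass in 9 of the 31 fits that left out 1 array (highest adjusted p = 0.0586, without saline replicate 4 of day 21). Of 25 metalloproteases and their inhibitors 4 fell and none rose. Adam12, a membrane metalloprotease of fibroblasts, had levels of 7.95 to 8.72 (median 8.29) in saline and 8.98 to 10.56 (median 10.23) in bleomycin mice of day 14, and 8.05 to 9.16 (median 8.37) and 8.41 to 9.57 (median 9.02) in those of day 21. All 8 bleomycin mice of day 14 and 3 of 8 at day 21 lay above the saline range. Saline replicate 4 set the top of that range at day 21, at 9.16, and the next saline mouse lay at 8.57, below the bleomycin median. Adam12 had a difference of -1.22 (standard error 0.28, adjusted p = 0.00419). Timp1, the main inhibitor of matrix metalloproteases, had levels of 9.42 to 10.16 (median 9.69) in saline and 11.46 to 12.73 (median 12.52) in bleomycin mice of day 14, and 8.91 to 9.76 (median 9.43) and 8.88 to 11.73 (median 10.91) in those of day 21. At day 21, 7 of 8 bleomycin mice lay above the saline range and replicate 4 below it, and the difference of -1.23 (standard error 0.51, adjusted p = 0.133) did not pass. Mmp12, the macrophage elastase, had a response of 3.60 at day 14 and 3.29 at day 21 and a difference of -0.31 (standard error 0.45, adjusted p = 0.764), with a 95% interval from -1.20 to 0.59, and 0.18 without bleomycin replicate 4 of day 21. With both arrays numbered 4 left out, 4 maturation genes and 2 metalloproteases or inhibitors fell and none rose.

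Among the secreted signals, Fst encodes follistatin, a secreted protein that binds activin, and had levels of 8.24 to 9.13 (median 8.72) in saline and 10.03 to 11.75 (median 11.22) in bleomycin mice of day 14, and 8.87 to 9.53 (median 9.11) and 8.80 to 10.82 (median 9.66) in those of day 21. All bleomycin mice of day 14 lay above the saline range, against 5 of 8 at day 21, where 1 lay below it. The difference of Fst was -1.70 (standard error 0.40, adjusted p = 0.00419), and a dimmer probeset gave -1.496 (adjusted p = 0.000873). Inhba, which encodes the activin A subunit, differed by -0.89 (standard error 0.32, adjusted p = 0.0691) and did not pass. Of 34 genes of transforming growth factor beta and activin signalling 3 fell (Fst, Fstl1 and Tgfb3) and none rose, with a median difference of -0.07. Of all genes 3.71% fell. That of Fstl1 did not pass in 2 of the 31 fits that left out 1 array (highest adjusted p = 0.0536, without saline replicate 4 of day 21). Without both arrays numbered 4, 1 of the 34 fell.

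Of 30 Wnt pathway genes 5 fell and 1 rose. The largest falls were those of Frzb and Sfrp1, secreted proteins that bind Wnt ligands. Frzb had levels of 5.43 to 6.34 (median 6.16) in saline and 7.20 to 9.37 (median 8.65) in bleomycin mice of day 14, and 5.77 to 6.65 (median 6.05) and 5.84 to 7.86 (median 7.06) in those of day 21. At day 14 all bleomycin mice lay above the saline range and at day 21 6 of 8 did. Its difference was -1.51 (standard error 0.41, adjusted p = 0.0139). Sfrp1 had a response of 2.34 at day 14 and 1.06 at day 21 and differed by -1.28 (standard error 0.33, adjusted p = 0.00976), and its 3 other probesets differed by -1.17 to -0.89. When both arrays numbered 4 were left out, it did not pass (-0.999, adjusted p = 0.0519), and 1 of the 30 genes fell and none rose. Rspo1, which amplifies Wnt signals, rose by 0.58 (standard error 0.19, adjusted p = 0.0452), a difference that did not pass in 21 of the 31 fits that left out 1 array (highest adjusted p = 0.108, without bleomycin replicate 2 of day 14). Among 29 genes of the PDGF, FGF and IGF families, the receptor Pdgfrb fell by 0.66 (standard error 0.11, adjusted p = 0.000103), with a response of 0.24 at day 14 and -0.41 at day 21. For Pdgfrb a brighter probeset gave -0.36 (adjusted p = 0.0117). Of the 29 genes 3 fell and 2 rose, against 3.71% and 2.92% of all genes, and without both arrays numbered 4 2 fell and 1 rose.

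Genes of the contractile apparatus of smooth muscle and myofibroblasts also lay below 0. All 18 measured had a difference below 0, 9 fell and none rose, and the median response was -0.07 at day 14 and -0.58 at day 21. The mean level of the list was 10.13 to 10.67 in saline and 10.15 to 10.52 in bleomycin mice of day 14, and 10.34 to 10.86 and 9.68 to 10.04 at day 21, so the groups overlapped at day 14, and all 8 bleomycin mice of day 21 lay below every saline mouse. Actg2, smooth muscle gamma actin, had levels of 10.77 to 11.87 (median 11.03) in saline and 10.57 to 11.67 (median 11.38) in bleomycin mice of day 14, and 10.49 to 11.72 (median 11.06) and 9.17 to 10.17 (median 9.87) in those of day 21. No bleomycin mouse of day 14 lay above the saline range and 1 lay below it, while all 8 of day 21 did. The difference of Actg2 was -1.33 (standard error 0.30, adjusted p = 0.00284), and bleomycin mice differed by -1.49 and saline mice by -0.16 between the days.

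Cnn1, which encodes calponin of smooth muscle, had levels of 9.64 to 10.95 (median 10.26) in saline and 9.27 to 10.18 (median 9.97) in bleomycin mice of day 14, and 9.82 to 11.10 (median 10.36) and 8.15 to 9.22 (median 8.83) in those of day 21. Each of the 8 bleomycin mice of day 21 lay below the saline range, against 2 of 8 at day 14, and the difference was -1.23 (standard error 0.32, adjusted p = 0.0117). Myh11 and Tagln, a myosin and an actin-binding protein of smooth muscle, differed by -0.95 (standard error 0.24, adjusted p = 0.009) and -0.74 (standard error 0.13, adjusted p = 0.000217). A dimmer probeset of Myh11 gave -0.55 (adjusted p = 0.0294). Acta2, smooth muscle alpha actin, was read at a median of 7.68 in saline mice of day 14 by the probeset kept, and all 8 bleomycin mice of day 21 lay below the saline range. Its difference of -1.04 (standard error 0.42, adjusted p = 0.117) did not pass. A brighter probeset of Acta2, at a mean level of 12.93, gave -0.73 (adjusted p = 0.00219). In the fit without both arrays numbered 4, 9 of the 18 genes fell, with a median difference of -0.65. Heart muscle genes, from tissue that can come along with a lung, varied widely: the mean level of 16 of them was 8.01 to 11.20 in saline and 7.20 to 10.26 in bleomycin mice of day 14, and 9.99 to 11.43 and 8.49 to 10.47 at day 21. None of the 16 passed, and their part in the contractile result was not tested.

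All 47 measured mitosis genes had a difference below 0, and 21 fell. Of 47 DNA replication genes 16 fell and 45 were below 0, and of 26 genes of DNA break repair 9 fell. None of these 3 lists held a gene that rose. The median responses were 1.36 at day 14 and 0.72 at day 21 for mitosis, 0.58 at day 14 and 0.31 at day 21 for replication and 0.43 at day 14 and 0.08 at day 21 for repair. The mean level of the mitosis list was 7.55 to 8.08 in saline and 8.59 to 9.47 in bleomycin mice of day 14, and 7.41 to 7.81 and 7.54 to 8.82 at day 21. All 8 bleomycin mice of day 14 lay above the saline range and 7 of 8 did so at day 21, where replicate 4 did not. With both arrays numbered 4 left out, the counts were 7 for mitosis, 7 for replication and 5 for repair, with median differences of -0.53, -0.30 and -0.29.

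Ttk, the spindle checkpoint kinase, had levels of 6.34 to 6.92 (median 6.67) in saline and 7.71 to 9.13 (median 8.50) in bleomycin mice of day 14, and 6.41 to 6.98 (median 6.76) and 6.52 to 8.05 (median 7.51) in those of day 21. All bleomycin mice of day 14 lay above the saline range, and 6 of 8 at day 21. Its difference was -1.07 (standard error 0.28, adjusted p = 0.0116), and a brighter probeset, which gave -0.76 (adjusted p = 0.0589), did not pass. Clspn, which encodes the replication checkpoint protein claspin, had levels of 7.00 to 7.46 (median 7.13) in saline and 8.48 to 9.56 (median 9.01) in bleomycin mice of day 14, and 6.80 to 7.25 (median 7.11) and 6.62 to 8.56 (median 7.89) in those of day 21 and a difference of -1.06 (standard error 0.30, adjusted p = 0.0184). A dimmer probeset of Clspn gave -0.49 (adjusted p = 0.0173). Without both arrays numbered 4, the difference of Clspn was -0.87, adjusted p = 0.0658. Pif1, a helicase of dividing cells, Tpx2, which nucleates spindle microtubules, and Brca2, of break repair, differed by -1.34 (standard error 0.27, adjusted p = 0.000978), -0.98 (standard error 0.28, adjusted p = 0.0198) and -0.66 (standard error 0.11, adjusted p = 0.000143). Other probesets of Pif1 gave -0.26 (adjusted p = 0.133), which did not pass and was the brighter, and -0.64 (adjusted p = 0.0368). Ccne1, the cyclin of the start of S phase, differed by -0.84 (standard error 0.18, adjusted p = 0.00161). Cdk1, the kinase of mitotic entry, had a response of 1.97 at day 14 and 1.22 at day 21 and a difference of -0.75 (standard error 0.31, adjusted p = 0.138), which did not pass. Of 21 p53 targets only Plk3 fell, against 3.71% of all genes. The difference of Plk3 did not pass in 6 of the 31 fits that left out 1 array (highest adjusted p = 0.0804, without saline replicate 6 of day 21). Cdkn1a, the p53-induced inhibitor of the cell cycle, had a response of 1.94 at day 14 and 1.501 at day 21 and a difference of -0.44 (standard error 0.34, adjusted p = 0.503).

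Cell cycle genes are known to share promoter elements, among them CCAAT boxes bound by NF-Y, the cell cycle homology region TTTGAA and E2F sites of the form GCGGGAA. These letters were searched on both strands in the 250 bases before the start of each gene in RefSeq (GRCm38.p6), where TTTGAA and GCGGGAA share their last 3 letters and neither holds the other. CCAAT was present for 11 of the 14 mitosis genes that fell and had a promoter in the table (78.6%), TTTGAA for 6 (42.9%) and GCGGGAA for none. Of the 14 such replication genes, 8 (57.1%), 4 (28.6%) and 3 (21.4%) held them. Of all measured members of the mitosis list with a promoter 72.2%, 38.9% and 2.78% held them, and of the replication list 57.9%, 23.7% and 28.9%, so the shares were not particular to the members that fell, and for GCGGGAA the replication genes that fell lay below their list. Of all 583 genes that fell, those with a promoter held them in 35.9%, 14.4% and 9.72%, against 39%, 13.5% and 6.89% of the 12513 tested genes and 37.5%, 18.3% and 4.38% of all 27025 genes with a promoter. These are descriptions of letters, with no test. To show how these elements lie, the last 100 bases before the start are given for 4 of the genes that fell, chosen after their values were seen because their matches lie close to the start. They are read along the gene, and capitals mark CCAAT or its reverse complement ATTGG and TTTGAA.
Ccnb2 (chr9:70421555-70421654, minus strand): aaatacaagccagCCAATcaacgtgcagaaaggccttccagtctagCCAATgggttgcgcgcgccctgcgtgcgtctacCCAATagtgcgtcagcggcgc
Espl1 (chr15:102296193-102296292, plus strand): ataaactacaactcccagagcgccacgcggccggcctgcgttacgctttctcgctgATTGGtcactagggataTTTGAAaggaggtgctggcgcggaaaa
Ttk (chr9:83834589-83834688, plus strand): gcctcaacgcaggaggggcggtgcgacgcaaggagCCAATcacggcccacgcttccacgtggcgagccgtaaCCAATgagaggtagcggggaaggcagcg
Clspn (chr4:126556880-126556979, plus strand): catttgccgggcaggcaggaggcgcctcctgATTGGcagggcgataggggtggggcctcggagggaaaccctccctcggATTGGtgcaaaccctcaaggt
Ccnb2, the B2 cyclin, has CCAAT at 87, 54 and 21 bases before the start and a difference of -0.92, and Espl1, the separase that releases sister chromatids, has a reversed CCAAT at 44 and TTTGAA at 27 and a difference of -0.57. In Ttk CCAAT stands at 65 and 28 bases, and in Clspn its reverse complement at 69 and 21.

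All 15 measured T cell genes had a difference below 0, and 3 fell. Ctla4, an inhibitory receptor, had levels of 6.84 to 7.50 (median 7.23) in saline and 7.92 to 9.69 (median 8.70) in bleomycin mice of day 14, and 6.97 to 8.84 (median 7.53) and 6.92 to 9.31 (median 8.05) in those of day 21. Each of the 8 bleomycin mice lay above the saline range at day 14 and 1 did so at day 21, where saline replicate 4 was the highest saline mouse. The difference was -1.13 (standard error 0.33, adjusted p = 0.0241), and for Foxp3, the factor of regulatory T cells, it was -0.60 (standard error 0.14, adjusted p = 0.00432). Ctla4 did not pass without bleomycin replicate 2 of day 14 (-1.003, adjusted p = 0.0558), saline replicate 4 (-0.95, adjusted p = 0.0619) or bleomycin replicate 4 (-0.95, adjusted p = 0.0569) of day 21. When both arrays numbered 4 were left out, 1 of the 15 fell.

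**Figure D2:**
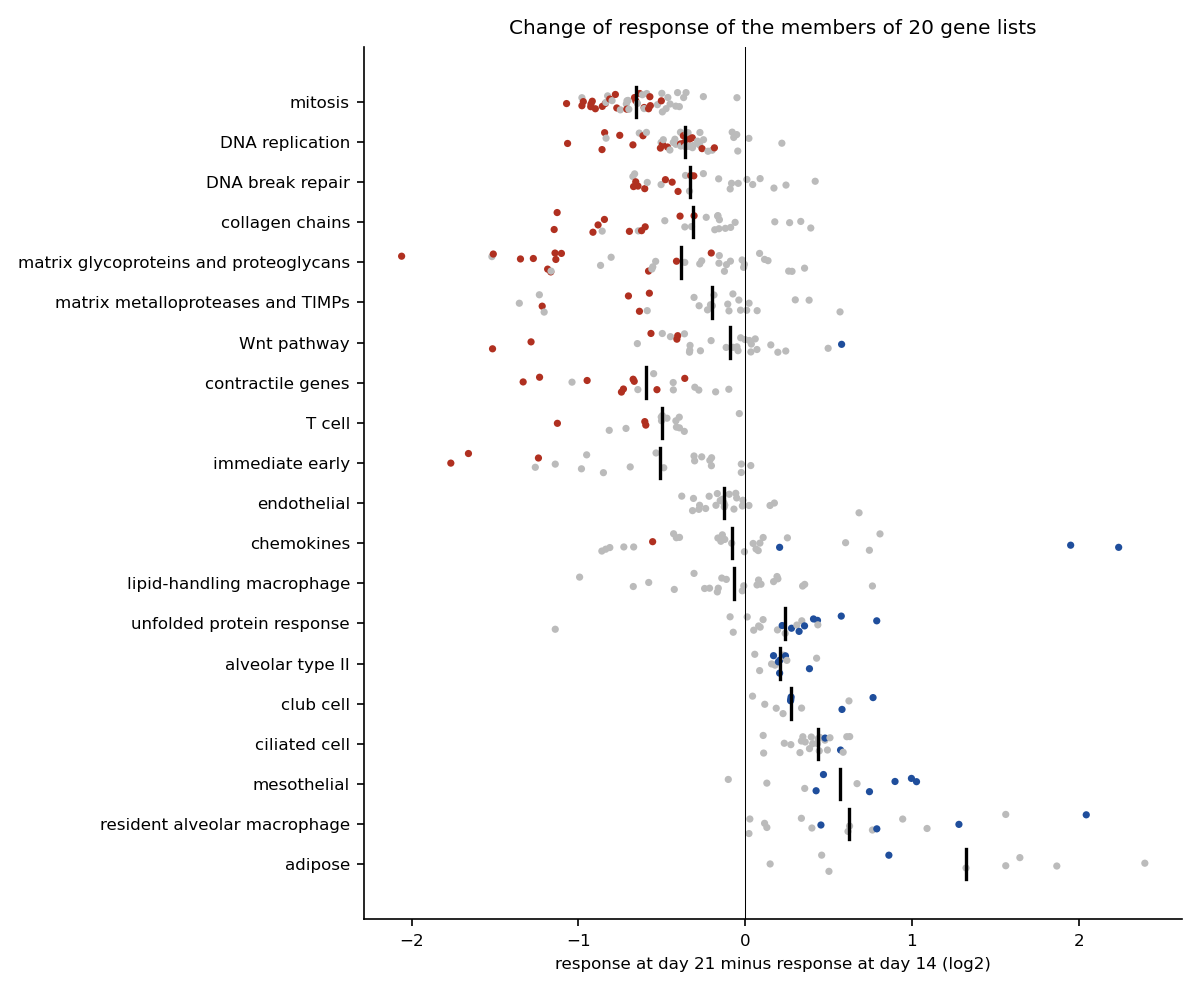
Response at day 21 minus response at day 14 (log2, horizontal axis) of every measured member of 20 gene lists, 1 point per gene, red where the response fell, blue where it rose and grey where it did not pass, with the median of the list as a black bar. Of the genes that passed, those of the mitosis, matrix glycoprotein and contractile lists all fell, and those of the type II, club cell, mesothelial and alveolar macrophage lists all rose.

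The response rose for genes of several epithelial types and of the mesothelium. Of 14 alveolar type II genes 6 rose and all were above 0, of 11 club cell genes 5 rose and all were above 0, and of 10 mesothelial genes 6 rose. The differences were small in the type II list, with a median of 0.21, and larger in the mesothelial list, with 0.57. Among 23 ciliated cell genes 2 rose and the median was 0.43. In the type II list the median change between the days was 0.10 in bleomycin and -0.07 in saline mice. For the mean level of that list, 7 of 8 saline mice of day 21 lay below every one of day 14. Medians in bleomycin and saline mice were 0.23 and -0.06 for club cell, 0.46 and 0.06 for ciliated cell and 0.54 and -0.01 for mesothelial genes. No gene of 13 alveolar type I or 20 transitional epithelium genes passed. The type II marker Sftpa1, a surfactant protein, had levels of 13.17 to 13.34 (median 13.25) in saline and 12.85 to 13.35 (median 12.91) in bleomycin mice of day 14, and 12.95 to 13.17 (median 13.05) and 12.996 to 13.34 (median 13.22) in those of day 21. At day 14, 6 of 8 bleomycin mice lay below the saline range, and at day 21 5 of 8 lay above it. The difference was 0.39 (standard error 0.09, adjusted p = 0.00288), and bleomycin mice differed by 0.19 and saline mice by -0.20 between the days. For Sftpa1 a brighter probeset gave 0.17 (adjusted p = 0.0125). The type II marker Sftpc differed by 0.06 (adjusted p = 0.23) and the type I marker Ager by 0.05 (adjusted p = 0.634), and neither passed.

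Gsta3, a glutathione transferase listed among the club cell genes, had levels of 11.59 to 11.90 (median 11.80) in saline and 10.34 to 11.61 (median 10.71) in bleomycin mice of day 14, and 11.68 to 12.003 (median 11.86) and 11.50 to 12.03 (median 11.60) in those of day 21. Below the saline range lay 7 of 8 bleomycin mice on either day, but the distance shrank from day 14 to day 21, and the difference was 0.77 (standard error 0.18, adjusted p = 0.00361). Cldn10, Cbr2 and Aldh1a1, a claudin and a pair of metabolic enzymes, rose by 0.58 (standard error 0.17, adjusted p = 0.0229), 0.28 (standard error 0.07, adjusted p = 0.00959) and 0.27 (standard error 0.05, adjusted p = 0.000764). The difference of Cldn10 did not pass in 1 of the 31 fits that left out 1 array (highest adjusted p = 0.0501, without saline replicate 4 of day 21). Bnc1, a transcription factor of the mesothelium, had levels of 8.65 to 9.42 (median 9.11) in saline and 7.78 to 9.41 (median 8.53) in bleomycin mice of day 14, and 8.15 to 9.01 (median 8.63) and 8.83 to 9.55 (median 9.09) in those of day 21. It went from 5 of 8 bleomycin mice below the saline range to 4 of 8 above it, with a difference of 1.03 (standard error 0.27, adjusted p = 0.0125). Muc16, a mucin of the mesothelium, had a response of -0.87 at day 14 and 0.13 at day 21 and a difference of 0.997 (standard error 0.30, adjusted p = 0.0287), which did not pass without saline replicate 4 (0.88, adjusted p = 0.0655) or bleomycin replicate 2 (0.88, adjusted p = 0.0643) of day 14, or saline replicate 4 (0.93, adjusted p = 0.0518) or bleomycin replicate 7 (0.91, adjusted p = 0.0526) of day 21. In the fit without both arrays numbered 4, 7 of the type II, 4 of the club cell, 1 of the ciliated cell and 3 of the mesothelial genes rose.

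Of the unfolded protein response, which raises folding capacity in the endoplasmic reticulum, 8 of 21 genes rose and none fell, with and without both arrays numbered 4. Sdf2l1, a partner of the chaperone Hspa5, had levels of 9.58 to 10.19 (median 9.72) in saline and 9.76 to 10.36 (median 9.99) in bleomycin mice of day 14, and 8.64 to 9.70 (median 8.98) and 9.36 to 10.92 (median 10.20) in those of day 21, and Hspa5 itself differed by 0.28. The difference of Sdf2l1 was 0.79 (standard error 0.20, adjusted p = 0.0097), and bleomycin mice differed by 0.03 and saline mice by -0.76 between the days. Dnajc3, a cochaperone, and Creld2, a secreted stress protein, rose by 0.58 (standard error 0.12, adjusted p = 0.00133) and 0.43 (standard error 0.11, adjusted p = 0.00975). The 4 other probesets of Dnajc3, all brighter, gave 0.15 to 0.27, and the lowest of these did not pass (adjusted p = 0.112). From day 14 to day 21 the mean level of Dnajc3 went from 9.70 to 9.29 in saline and from 9.55 to 9.71 in bleomycin mice. Every saline mouse of day 21 lay below all those of day 14.

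Some genes that bleomycin lowered at day 14 were less lowered at day 21. Cyp1a1, a xenobiotic-metabolizing oxidase, had levels of 9.21 to 12.16 (median 10.19) in saline and 6.40 to 7.95 (median 7.19) in bleomycin mice of day 14, and 8.97 to 9.69 (median 9.30) and 6.94 to 9.66 (median 8.33) in those of day 21. All 8 bleomycin mice of day 14 and 7 of 8 at day 21 lay below the saline range, and replicate 4 of day 21 lay inside it. Its response was -3.05 at day 14 and -1.10 at day 21, a difference of 1.95 (standard error 0.56, adjusted p = 0.0229), which did not pass without saline replicate 3 of day 14, the highest saline mouse (1.64, adjusted p = 0.0603). Both sides moved: from day 14 to day 21 its mean level went from 10.30 to 9.32 in saline and from 7.25 to 8.22 in bleomycin mice. Cyp1a1 was the only gene of 9 in the aryl hydrocarbon receptor list to pass. Igfbp3, which binds insulin-like growth factors, had levels of 11.36 to 11.67 (median 11.46) in saline and 8.60 to 9.47 (median 9.10) in bleomycin mice of day 14, and 10.63 to 11.41 (median 11.24) and 8.79 to 11.17 (median 9.73) in those of day 21. The groups did not overlap at day 14, and at day 21 replicate 4 alone reached the saline range. The difference of Igfbp3 was 1.10 (standard error 0.31, adjusted p = 0.0174), that of a dimmer probeset 0.97 (adjusted p = 0.0363), and that without both arrays numbered 4 0.83, adjusted p = 0.0806. Ces1f, a carboxylesterase, had levels of 9.70 to 10.92 (median 9.90) in saline and 7.55 to 8.87 (median 8.26) in bleomycin mice of day 14, and 9.48 to 10.39 (median 9.99) and 8.69 to 10.47 (median 9.40) in those of day 21, so that all 8 bleomycin mice of day 14 and 4 of 8 of day 21 lay below the saline range, and a difference of 1.37 (standard error 0.34, adjusted p = 0.00718).

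For resident alveolar macrophage genes 1 saline mouse decided much of the result. All 16 measured were above 0 and 4 rose. Siglecf, a sialic acid receptor, had levels of 9.63 to 9.96 (median 9.86) in saline and 8.93 to 9.96 (median 9.34) in bleomycin mice of day 14, and 4.61 to 9.85 (median 9.46) and 9.33 to 10.40 (median 9.70) in those of day 21. Saline replicate 4 of day 21 lay at 4.61, and the next saline mouse at 9.10. The difference was 1.28 (standard error 0.42, adjusted p = 0.0447) with that mouse and 0.67, adjusted p = 0.11 without it. Fabp1, a fatty acid binding protein, had levels of 10.59 to 11.53 (median 11.14) in saline and 7.15 to 9.76 (median 7.60) in bleomycin mice of day 14, and 4.93 to 10.94 (median 10.67) and 7.68 to 10.64 (median 8.61) in those of day 21, and its difference went from 2.05 (standard error 0.64, adjusted p = 0.0358) to 1.33, adjusted p = 0.11 without the same mouse. Chil3, a chitinase-like protein of macrophages, stood at 10.01 in that mouse and at 13.05 or more in the others, and its difference went from 0.79 (standard error 0.26, adjusted p = 0.0448) to 0.38, adjusted p = 0.0692. Siglecf and Chil3 did not pass in 15 of the 31 fits that left out 1 array, and Fabp1 in 9. Pparg, a nuclear receptor of lipid metabolism, differed by 0.45 (standard error 0.12, adjusted p = 0.0152) (0.39, adjusted p = 0.0372 without both arrays numbered 4). Without both arrays 2 of the 16 rose. In a fit of the 31 arrays alone none of the 4 passed (adjusted p = 0.243 for Siglecf, 0.153 for Fabp1, 0.291 for Chil3 and 0.0585 for Pparg).

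Mfsd2a, a lipid transporter, had levels of 9.15 to 9.999 (median 9.64) in saline and 8.64 to 9.81 (median 9.21) in bleomycin mice of day 14, and 6.61 to 9.19 (median 8.73) and 8.82 to 10.22 (median 9.84) in those of day 21. The same saline mouse was the lowest, yet 7 of 8 bleomycin mice of day 21 lay above the whole saline range. The difference was 1.55 (standard error 0.29, adjusted p = 0.000383) and 1.27, adjusted p = 0.000957 without that mouse. From day 14 to day 21 the mean level of Mfsd2a went from 9.60 to 8.55 in saline and from 9.24 to 9.74 in bleomycin mice. Scd1 and Fasn, which make fatty acids, differed by 0.86 (standard error 0.21, adjusted p = 0.00659) and 0.52 (standard error 0.11, adjusted p = 0.00183). A brighter probeset of Scd1, at a mean level of 14.14, gave 0.16 (adjusted p = 0.0113). Bleomycin mice differed by -0.25 and saline mice by -1.11 between the days for Scd1. In 9 adipose genes, which mark fat that can come along with a lung, the median difference was 1.32 and the mean level was 7.58 to 9.33 in saline and 6.78 to 7.99 in bleomycin mice of day 14, and 7.47 to 9.30 and 7.22 to 9.92 at day 21. Only Scd1 of the 9 passed, and the part of adipose tissue in the results for Scd1 and Fasn was not tested.

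**Figure D3:**
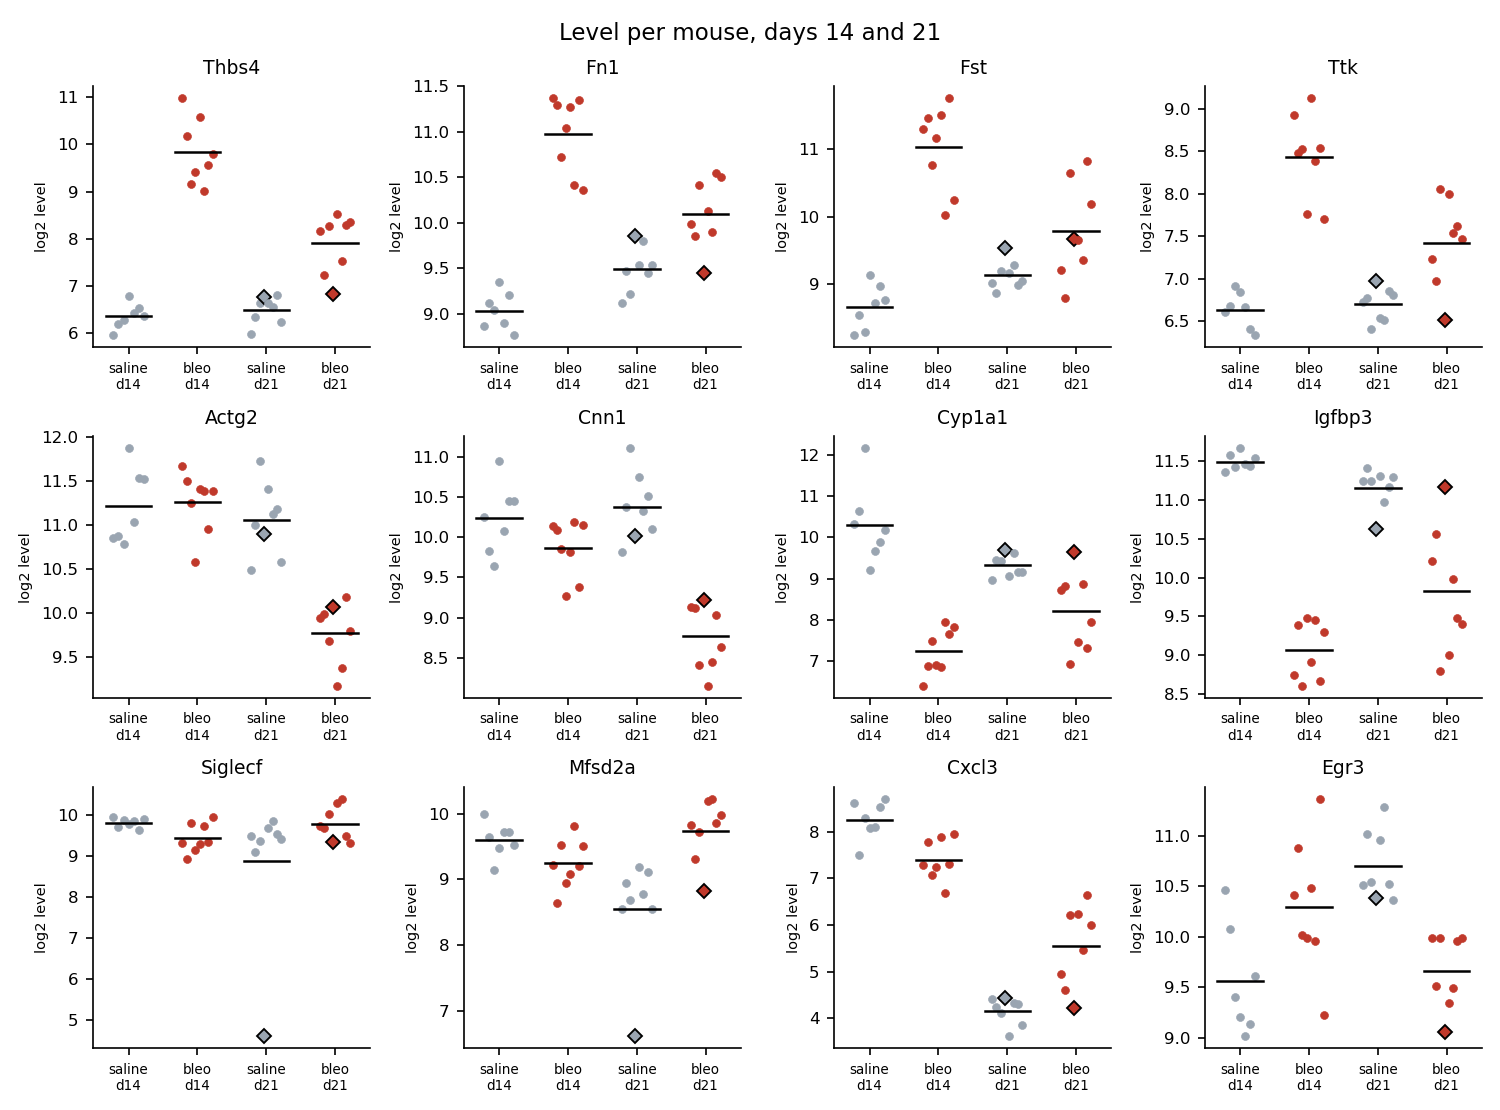
Log2 level of 12 genes in every mouse of the 4 groups, 1 point per mouse, saline in grey and bleomycin in red, with the group mean as a black line and both replicates numbered 4 of day 21 as diamonds. Thbs4, Fn1, Fst and Ttk approached saline levels at day 21, Actg2 and Cnn1 left them, and for Cxcl3 the saline groups of the 2 days did not overlap.

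For further genes, as for Scd1, Sdf2l1, Dnajc3 and Mfsd2a, the difference came mainly from the saline mice. Cxcl3 and Cxcl2 encode chemokines that attract neutrophils. Cxcl3 had levels of 7.50 to 8.70 (median 8.30) in saline and 6.69 to 7.96 (median 7.29) in bleomycin mice of day 14, and 3.61 to 4.43 (median 4.27) and 4.22 to 6.64 (median 5.73) in those of day 21. Its mean level fell by 4.10 in saline and fell by 1.86 in bleomycin mice between the days, and every saline mouse of day 21 lay below all those of day 14. The difference was 2.24 (standard error 0.51, adjusted p = 0.00333). On other days the saline range of Cxcl3 was 4.10 to 5.23 (day 1), 4.37 to 6.24 (day 2), 5.16 to 6.95 (day 7), 7.07 to 8.55 (day 28) and 4.93 to 5.84 (day 35). The saline mice of days 14 and 28 thus formed a high range with no overlap with the others. What set it was not tested.

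Cxcl2 had levels of 8.21 to 9.01 (median 8.88) in saline and 7.59 to 9.10 (median 8.56) in bleomycin mice of day 14, and 4.81 to 7.90 (median 5.92) and 5.91 to 10.41 (median 7.54) in those of day 21, with a difference of 1.95 (standard error 0.64, adjusted p = 0.0465) that did not pass in 23 of the 31 fits that left out 1 array. Its highest p was 0.115, without bleomycin replicate 7 of day 21. Fgg, which encodes the fibrinogen gamma chain, differed by 1.62 (standard error 0.39, adjusted p = 0.00637), and bleomycin mice differed by -0.05 and saline mice by -1.67 between the days. Il33 and Il18, cytokines stored in epithelium and other cells, rose by 0.60 (standard error 0.13, adjusted p = 0.00214) and 0.59 (standard error 0.19, adjusted p = 0.0407). The difference of Il18 did not pass in 16 of the 31 fits that left out 1 array (highest adjusted p = 0.109, without saline replicate 4 of day 21). For Il33 the bleomycin mice differed by 0.10 and saline mice by -0.50 between the days. Of 27 chemokines 3 rose and 1 fell, and of 30 cytokines and receptors 2 rose, where 2.92% of all genes rose and 3.71% fell. With both arrays numbered 4 left out, 4 chemokines rose and none fell. The cytokine Il6 differed by -0.30 (adjusted p = 0.894) and did not pass.

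Immediate early genes, transcription factors induced within minutes of a stimulus, also differed between the saline groups. Of 20 measured, 19 were below 0 and 3 fell, and the median difference between the saline groups was 0.44. Egr3 had levels of 9.01 to 10.46 (median 9.41) in saline and 9.23 to 11.37 (median 10.22) in bleomycin mice of day 14, and 10.37 to 11.29 (median 10.53) and 9.06 to 9.99 (median 9.74) in those of day 21, and all 8 bleomycin mice of day 21 lay below the saline range. Its difference was -1.76 (standard error 0.44, adjusted p = 0.00788), and bleomycin mice differed by -0.62 and saline mice by 1.14 between the days. Nr4a3, an orphan nuclear receptor, had levels of 10.27 to 11.30 (median 10.98) in saline and 11.56 to 12.53 (median 11.83) in bleomycin mice of day 14, and 11.42 to 13.56 (median 12.91) and 11.22 to 12.99 (median 12.21) in those of day 21. Each of the 8 bleomycin mice lay above the saline range at day 14 and 1 below it at day 21, a difference of -1.66 (standard error 0.50, adjusted p = 0.028). It did not pass without saline replicate 1 (-1.55, adjusted p = 0.0535) or bleomycin replicate 7 (-1.57, adjusted p = 0.0505) of day 14. From day 14 to day 21 the mean level of Nr4a3 went from 10.92 to 12.80 in saline and from 11.88 to 12.10 in bleomycin mice. The lowest saline mouse of day 21 was replicate 1, at 11.42, and the next lay at 12.59, above the bleomycin median. Without both arrays numbered 4, 2 of the 20 fell. A dimmer probeset of Egr3 gave 0.02 (adjusted p = 0.936), and one of Nr4a3 0.04 (adjusted p = 0.834).

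No gene passed in the lists of complement, interferon-stimulated, MHC class II, lipid-handling macrophage, monocyte, neutrophil, NK cell, B cell, plasma cell, endothelial, red blood cell, mast cell, glycolysis and circadian clock genes. In other lists a few genes passed, where 2.92% of all genes rose and 3.71% fell. Counts of so few genes in short lists are not read as results about the lists. Rises were found for 1 of 12 goblet and mucin, 2 of 12 alternatively activated macrophage, 3 of 18 NRF2 and antioxidant, 3 of 18 fatty acid synthesis, 1 of 15 cholesterol synthesis, 2 of 20 coagulation genes and 1 of 11 EGF receptor ligands. Falls were found for 3 of 20 genes of serine, proline and branched-chain amino acid metabolism and for 1 of 11 bone matrix genes, and among 20 resident fibroblast genes 1 fell and 2 rose. Bcat1, of the amino acid list, differed by -1.42 (adjusted p = 0.147) and did not pass. When both arrays numbered 4 were left out, 2 NRF2, 2 cholesterol and 1 coagulation gene rose and no EGF receptor ligand or resident fibroblast gene did, and 2 amino acid genes and 1 endothelial gene fell. Lipid-handling macrophage genes had median responses of 0.84 at day 14 and 0.73 at day 21, monocyte genes 0.86 at day 14 and 0.57 at day 21, and complement genes 0.63 at day 14 and 0.49 at day 21. Without both arrays numbered 4 these medians at day 21 were 0.85, 0.72 and 0.65, so most of their fall rested on those arrays. Endothelial genes were lower in bleomycin mice, with medians of -0.33 at day 14 and -0.49 at day 21, and Pecam1, their adhesion molecule, had a response of -0.25 at day 14 and -0.43 at day 21 and a difference of -0.17 (standard error 0.10, adjusted p = 0.313), with a 95% interval from -0.37 to 0.02.

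**Figure D4:**
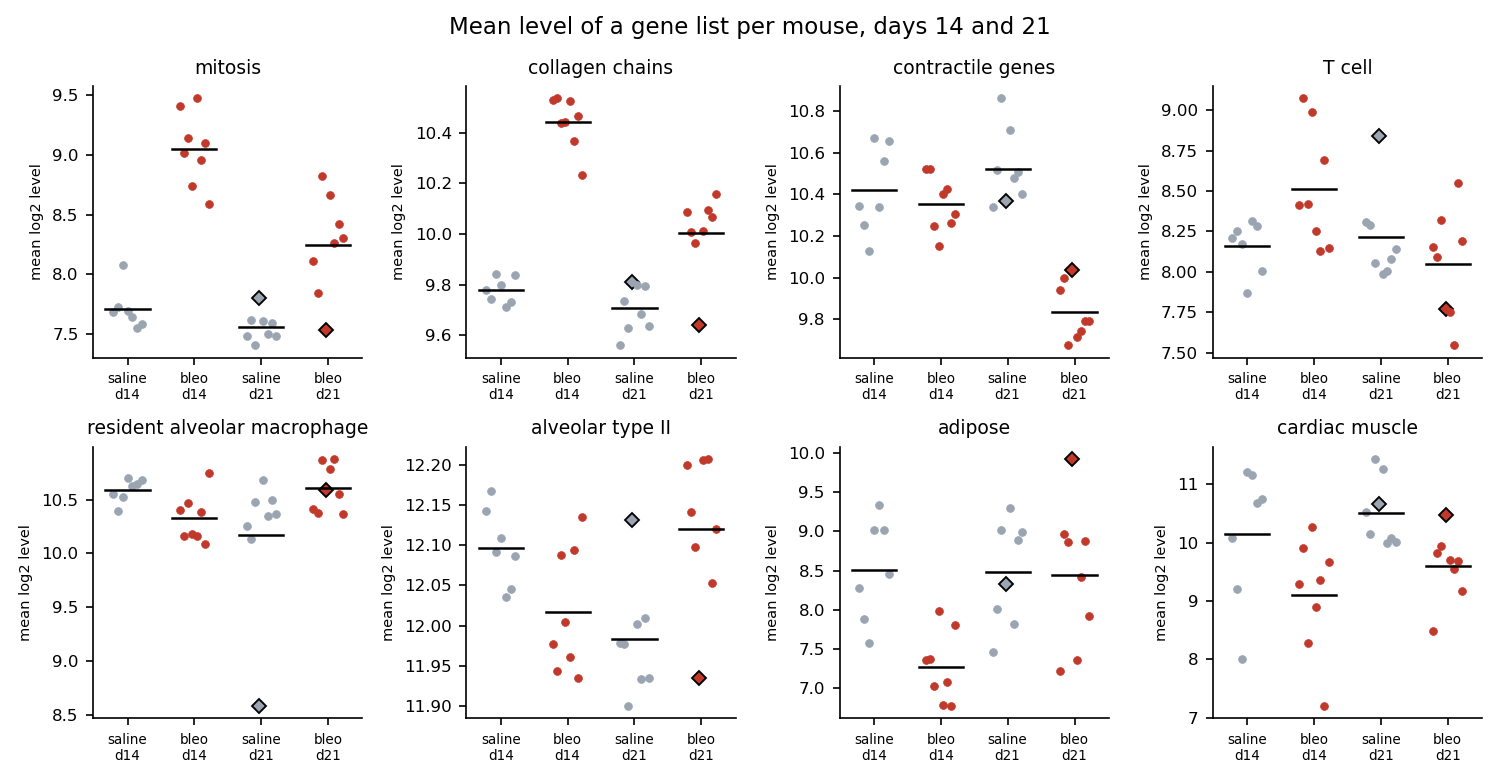
Mean log2 level of the measured genes of 8 lists in every mouse of the 4 groups, saline in grey and bleomycin in red, with the group mean as a black line and both replicates numbered 4 of day 21 as diamonds. The contractile list separated bleomycin from saline mice at day 21 and not at day 14, and in the mitosis and collagen lists 8 of 8 bleomycin mice lay above the saline range at day 14 and 7 of 8 at day 21.

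Day 7 gave a selection of genes that used none of the mice compared here. At day 7, 448 genes were higher in bleomycin mice (2.85%) and 75 were lower (0.477%) by more than 2-fold. The higher genes had median responses of 1.25 at day 14 and 0.77 at day 21. Of the 448, 399 had a difference below 0, 97 fell (21.7%, against 3.71% of all genes) and 2 rose. The lower genes had median responses of -1.15 and -0.67. Of the 75, 69 had a difference above 0, 8 rose (10.7%, against 2.92%) and none fell. In the fit without both arrays numbered 4, 39 of the higher genes fell, without bleomycin replicate 4 alone 61, and without bleomycin replicate 8 of day 14 147.

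The change of response from day 7 to day 28, also in other mice, was set beside it. In that comparison 1908 genes fell (12.1%) and 1137 rose (7.24%), and 50.6% of all genes were below 0. Of the 583 genes that fell from day 14 to day 21, 523 were below 0 and 340 fell from day 7 to day 28. Of the 458 that rose, 398 were above 0, against 49.4% of all genes, and 162 rose. Of the 42 genes over 2-fold 40 were below 0 and 20 fell. Of the 13 over 2-fold 9 were above 0, but only 2 rose and 1 fell. With both arrays numbered 4 left out, the count of genes that fell in both was 216. Fst, Sfrp1 and Ttk differed by -2.11, -1.77 and -1.57 from day 7 to day 28. Cxcl3, which rose from day 14 to day 21, differed by -2.23 (adjusted p = 0.000605). Here too the saline mice carried most of the difference. From day 7 to day 28 the mean level of Cxcl3 went from 5.87 to 7.92 in saline and from 7.28 to 7.10 in bleomycin mice.

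**Figure D5:**
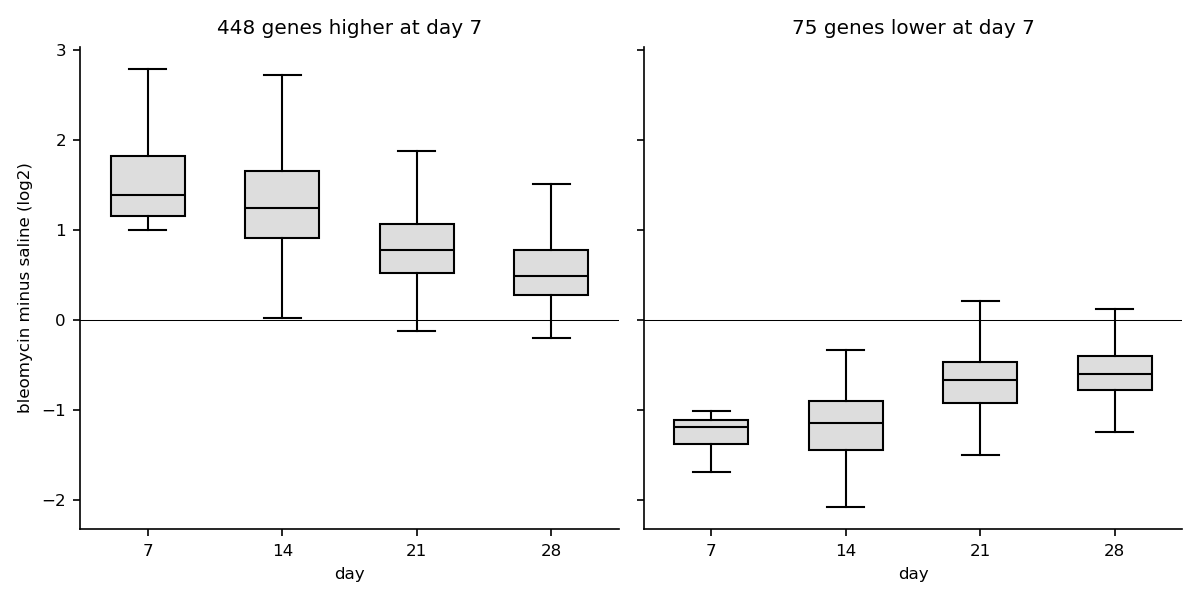
Responses (bleomycin minus saline, log2) on 4 days of the 448 genes higher and the 75 genes lower by over 2-fold at day 7, with the box from the lower to the upper quartile, the median as a line and whiskers to the farthest gene within 1.5 box heights. Day 7 chose the genes, and the median of the higher genes went from 1.25 at day 14 to 0.77 at day 21.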

How the data were processed

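Lung RNA was hybridised to Affymetrix arrays, 1 per mouse. The authors deposited log2 values made by robust multi-array averaging, with background correction and quantile normalization, so depth per array does not apply and the number of arrays limits the precision. Probesets were named by the platform annotation, whose genome build was not given in the sources used here. For each gene the single-gene probeset of highest variance was kept.

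All 111 arrays were fitted with 1 mean per group of treatment and day in limma 3.58.1 (R 4.3.3), and p-values were adjusted by Benjamini-Hochberg over 15707 genes, with a threshold of 0.05. The fit was also run on simulated data with known changes, in which deviations from group means were shuffled over arrays. The shuffling does not keep the spread of each group, so that run cannot check calls where groups differ in spread. The labels do not say how mice were allocated to processing batches. The named genes were the 14 largest calls in each direction, up to 4 calls per list and direction (in a list without calls, its largest difference) and a set of genes named whatever they showed. Ccnb2, Espl1 and other genes outside this rule were chosen after their values were seen. The members and lists were chosen with earlier results of these data known. Spp1, Mki67, Krt8 and Arg1 were not analysed here. Alternatives were another choice of probeset, a filter on dim genes, other scaling, other fits, a replicate block and leaving out arrays.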

Additional observations from a re-analysis of the deposited data

Results flagged for a closer look

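The response to bleomycin differed between days 14 and 21, by limma's test of the difference itself, for 583 genes that fell and 458 that rose, and with a difference of over 2-fold for 42 and 13.

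Among 39 genes in 4 groups each, 14 of 156 sets of values held a mouse far from the rest of its group by Dixon's criterion, which chance meets in about 1 of 20. Of these, 5 were bleomycin replicate 4 of day 21, with log2 levels of 4.64 for Col24a1, 7.06 for Col5a3, 12.31 for Col1a1, 11.10 for Col3a1 and 12.03 for Gsta3. In the collagen genes it was the lowest of its group and in Gsta3 the highest. Another 6 were saline replicate 4 of day 21, the lowest of its group for Fabp1 (4.93), Siglecf (4.61), Chil3 (10.01) and Mfsd2a (6.61) and the highest for Ctla4 (8.84) and Adam12 (9.16). The others were Col3a1 in saline replicate 3 of day 14 (12.06), Cemip in saline replicate 1 of day 14 (5.06) and Nr4a3 in saline replicate 1 of day 21 (11.42). What set these mice apart was not tested.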

How the results depend on the processing

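Counts of genes that fell or rose, over 2-fold or at any fold, moved with some settings. Without the 30% dimmest genes 27 fell over 2-fold. With array weights 960 fell and 709 rose, 180 of the genes higher at day 7 fell, and 629 fell in both periods. In bleomycin mice alone, with no saline, 77 fell and 36 rose over 2-fold, 2346 fell and 2232 rose at any fold, 274 of the day 7 genes fell and 923 fell in both periods. Without both day 21 arrays numbered 4, chosen after seeing the data, these were 27 over 2-fold, 39 and 216. Leaving out 1 array gave 7 to 22 rises and 30 to 69 falls over 2-fold, 293 to 666 rises and 401 to 808 falls at any fold, 61 to 147 of the day 7 genes and 231 to 461 in both periods. The arrays of days 14 and 21 alone cannot give the last 2 counts.

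Signs reversed for Ager (-0.0331, quantile normalization repeated), Col3a1 (0.0541 with array weights, -0.187 to 0.0316 without 1 array, 0.15 without both arrays), Il6 (-0.714 to 0.0136 without 1 array) and Mmp12 (-0.458 to 0.182 without 1 array, 0.0783 without both). With no saline they did for Calcrl (-0.31), Cxcl15 (-0.0859), Cxcl2 (-0.66), Cxcl3 (-1.86), Elovl1 (-0.0884), Fgg (-0.0525), Igha (0.35), Klre1 (-0.20), Npas2 (-0.0224), Nr4a3 (0.22), Scd1 (-0.25) and Sftpc (-0.00640). The cause was not tested, beyond the change in saline levels that this setting leaves out. The 141 named genes include some that were not called and so had no call to lose. Of the called ones 41 lost their call without both arrays and 20 in the arrays of days 14 and 21 alone, among them Chodl, Ctla4, Cxcl2, Il18 and Rspo1.

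With the replicate number as a block, 656 genes fell and 529 rose (47 and 13 over 2-fold), and no named gene lost its call. Same-numbered mice correlated between -0.489 and 0.367 in their deviations from group means. Between pairs of groups the median correlation was -0.08 to 0.13 for same-numbered mice and -0.04 to 0.02 for other mice. Whether the numbers stand for anything shared was not tested.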
